A study of Mus musculus with 4 samples.

Results

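Transcription factors that set the balance between resting (central) and activated (effector) regulatory T cells were examined in sorted mouse spleen cells, and 9 of the 10 named factors could be measured. They were chosen by name: Tcf7, Lef1, Bach2, Foxo1 and Id3 as the central set, and Prdm1, Irf4, Batf, Maf and Id2 as the effector set. A member was counted as measured where the platform annotation gives exactly its symbol to a transcript cluster, the unit in which the array reports expression. This left 4 central and 5 effector genes among 30497 named genes, each with a single cluster. Tcf7 is not named in that annotation and was not analysed here.

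Regulatory T cells are a class of CD4 T cells, defined by Foxp3, that holds immune responses in check. Central cells recirculate through lymphoid organs and depend on factors shared with naive T cells: Foxo1 drives homing and survival genes, Lef1 and Tcf7 bind DNA through a high-mobility-group box as partners of beta-catenin, Bach2 competes with AP-1 factors at their sites and restrains effector genes, and Id3 blocks E proteins. On T cell receptor stimulation, Irf4 and its bZIP partner Batf open effector genes, and Prdm1 (the repressor Blimp-1), Maf and Id2 follow in cells that leave for tissues and make interleukin-10. In B cells, Irf4 and Prdm1 are also the factors that drive antibody-secreting plasma cells, while Bach2 represses Prdm1.

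The tested mice (labelled KO) carried the Cre transgene B6-Tg(Foxp3EGFP-cre)1cJbs/J together with a floxed Bmi1 allele (BMI1-flox C57BL/6), so that Bmi1, which belongs to the gene-silencing Polycomb complexes, would be lost where Foxp3 drives Cre. The control mice (labelled WT) carried the same Cre transgene on C57BL/6 without the floxed allele, so both groups express the Foxp3-driven green fluorescent protein and Cre. Mice were 7 to 8 weeks old, 15000 to 40000 green CD4 cells were sorted per sample, and there were 2 arrays per group: KO replicates 1 and 2, and WT replicates 1 and 3. The sample titles call the cells unstimulated, but the series text has them stimulated through CD3 and CD28 for 24 h, so their state is unsettled here. Whether each array stands for a separate animal is not stated. The p-values therefore describe the spread among these arrays, which may be technical.

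Some measurements on the samples bear on every value below. Array medians lay at 4.65 and 4.69 (arrays labelled KO) and 4.72 and 4.67 (arrays labelled WT) on the log2 scale. Bmi1 read 9.58 and 9.91 in the arrays labelled KO, against 8.98 and 8.98 in the arrays labelled WT. That is the opposite of the genotype label, and which exons the cluster covers is not given in the sources used here, so every direction rests on the labels alone. T cell markers were bright (list means 14.17 to 14.28 in the arrays labelled KO and 14.00 to 14.07 in the arrays labelled WT), and so was the regulatory T cell marker Il2ra (14.99 to 15.01 and 14.97 to 15.00). In the arrays labelled KO, 4 of 9 measured regulatory T cell markers were higher and 5 were lower, and 0 passed the limma adjusted threshold used below. Lrrc32, which anchors latent TGF-beta, read 11.18 and 10.48 in the arrays labelled KO, against 12.05 and 12.28 in the arrays labelled WT (limma adjusted p 0.298). In the same list Gpr83 and Izumo1r were higher in the arrays labelled KO. Their log2 differences were 1.15 (SE 0.28, limma adjusted p 0.354) and 0.24 (SE 0.08, limma adjusted p 0.436). Foxp3 shares its cluster with another gene and was not used. Of 12 measured B cell markers, 10 lay below the median gene. WT replicate 1 stood apart for Ly6c2, a T cell surface protein. This gene read 14.07 and 13.33 in the arrays labelled KO and 13.38 in WT replicate 3, but 8.60 in WT replicate 1. Over all genes without ties, WT replicate 1 was the lowest array for 25.3% and WT replicate 3 for 28.0%. Because of Ly6c2, the factors are given with and without WT replicate 1.

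Several of these factors belong to DNA-binding classes whose letters occur in one another's promoters, so the promoters of 3 such members are shown, each 300 bases (250 before to 50 after the start) from RefSeq on mouse build GRCm38.p6. Capitals mark matches, on either strand, to CTTTGA (TCF and LEF factors), GTAAACA (FOXO factors), TGANTCA (AP-1, the class of Batf and its Jun partners), TGCTGA (one part of the MAF and BACH element, which can overlap AP-1), GAAAGT (Blimp-1) and CAGNTG (the E box that E proteins bind and Id2 and Id3 keep free). The Prdm1 promoter is on the minus strand at chr10:44458699-44458998, that of Bach2 on the plus strand at chr4:32417185-32417484, and the farthest downstream of 4 listed Lef1 starts on the plus strand at chr3:131156044-131156343.
Prdm1: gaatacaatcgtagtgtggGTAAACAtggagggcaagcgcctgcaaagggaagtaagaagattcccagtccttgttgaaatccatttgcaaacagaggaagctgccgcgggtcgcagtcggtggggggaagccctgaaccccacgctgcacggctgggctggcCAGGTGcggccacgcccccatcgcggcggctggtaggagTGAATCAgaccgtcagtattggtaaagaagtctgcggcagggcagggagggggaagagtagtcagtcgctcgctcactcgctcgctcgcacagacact
Bach2: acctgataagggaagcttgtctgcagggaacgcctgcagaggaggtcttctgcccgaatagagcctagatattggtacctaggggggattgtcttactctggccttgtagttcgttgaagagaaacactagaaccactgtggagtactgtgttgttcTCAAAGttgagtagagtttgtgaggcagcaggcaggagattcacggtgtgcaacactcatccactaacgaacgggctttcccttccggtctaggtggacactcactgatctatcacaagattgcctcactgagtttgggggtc
Lef1: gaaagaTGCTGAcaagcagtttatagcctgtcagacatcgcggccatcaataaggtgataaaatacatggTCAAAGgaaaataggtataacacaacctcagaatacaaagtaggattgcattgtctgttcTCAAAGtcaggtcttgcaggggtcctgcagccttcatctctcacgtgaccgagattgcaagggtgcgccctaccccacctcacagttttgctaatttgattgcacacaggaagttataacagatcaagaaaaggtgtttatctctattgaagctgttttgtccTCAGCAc

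Each of these windows holds letters searched for as those of another member's class. The Prdm1 window has 1 match to the AP-1 letters, 1 FOXO match and 1 E box. Its AP-1 match reads TGAATCA, and the search allowed any middle base, here and in all windows counted below. The Bach2 window has 1 TCF and LEF match, and the Lef1 window has 2 TCF and LEF matches and 2 of the MAF and BACH element. The Lef1 window was chosen for its matches: the other 3 listed Lef1 starts have no TCF and LEF match, the first of them has no match at all, the second has 1 E box, and the third has 1 match each for the MAF and BACH element and Blimp-1 and 2 E boxes. In all 32851 RefSeq promoter windows of this length, 7.81% hold the AP-1 letters, 3.65% the FOXO letters, 16.0% the TCF and LEF letters, 19.5% the MAF and BACH letters and 51.4% an E box. The Blimp-1 letters occur in 14.3%. Among the other measured members with an entry, the Irf4 window has 1 Blimp-1 match, the Batf and Id2 windows have 1 E box each, and the Foxo1 and Id3 windows have no match. A match is a description of these letters and not of a bound site.

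None of the 9 factors differed between the arrays labelled KO and WT at a limma adjusted p under 0.05, a rule that called 0.00656% of all genes (2 of 30497). At an unadjusted p under 0.05, 1 member was called, Lef1, which was higher in the arrays labelled KO. Of all genes 10.1% were called, 6.32% higher and 3.75% lower. The KO and WT arrays did not overlap for 5 of the 9. Lef1, Batf and Maf lay higher in the arrays labelled KO, and Bach2 and Foxo1 lay lower. Over all genes 38.4% did not overlap, 20.9% being higher and 17.5% lower. The members' median size of difference was 0.17 on the log2 scale. It was 0.10 over all genes and 0.15 over the 9771 genes whose mean lay in the members' range. In bulk RNA from sorted cells, a change in the share of central or effector cells and a change in RNA per cell cannot be told apart.

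**Figure D1:**
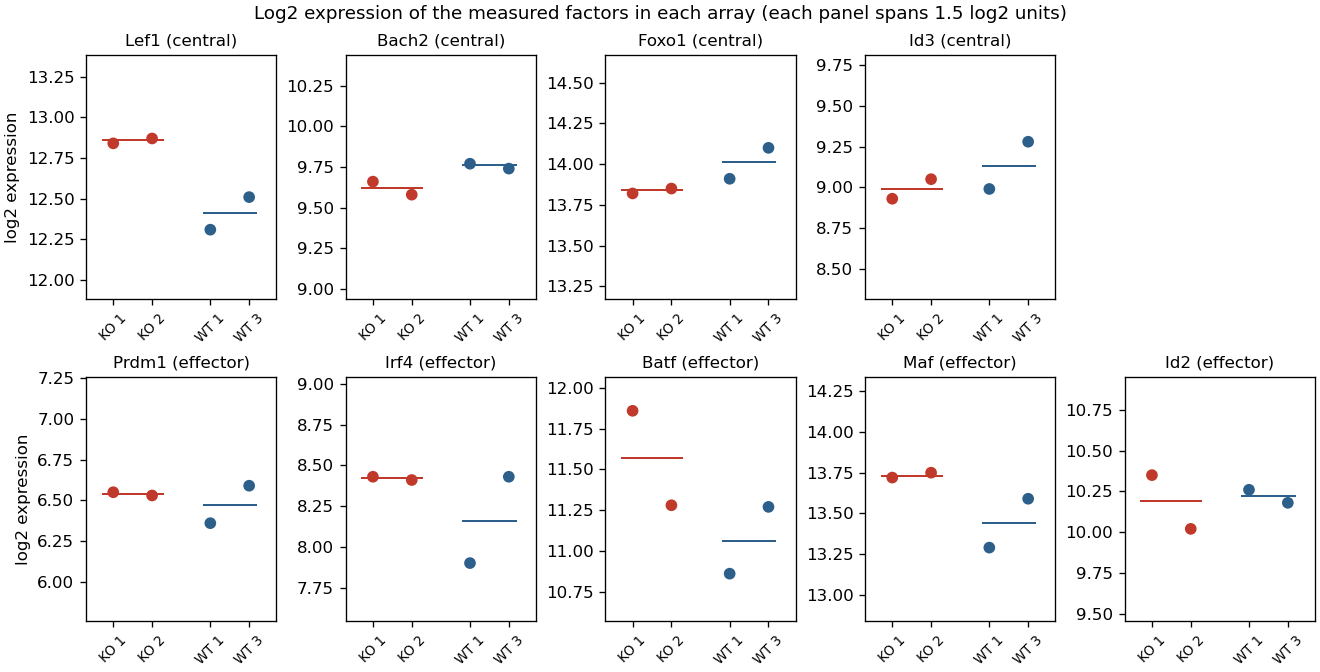
Log2 expression (y axis) of the 9 measured factors in each array (x axis), with the arrays labelled KO in red on the left and those labelled WT in blue on the right. Points are single arrays and lines are group means, and every panel spans the same number of log2 units. The Lef1, Batf and Maf points of the arrays labelled KO lie above both arrays labelled WT, and WT replicate 1 is the lowest point for Prdm1, Irf4, Batf, Maf and Lef1.

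Among the central factors, Lef1 was the member that stood farthest from its replicate spread. It read 12.84 and 12.87 in the arrays labelled KO, against 12.31 and 12.51 in the arrays labelled WT. The groups were apart by more than the distance within either. Its mean was 12.86 ± 0.02 in the arrays labelled KO and 12.41 ± 0.14 in the arrays labelled WT (SD, n = 2 each). Its log2 difference of 0.45 (SE 0.12) was 1.36-fold with a 95% interval of 1.11 to 1.67, with an unadjusted limma p of 0.0114 and a limma adjusted p of 0.368. Ranked by p it came 947th of 30497 genes, and 5.50% of genes had a larger difference in either direction. Without WT replicate 1 the difference was 0.34 (SE 0.09, limma adjusted p 0.591).

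The other central factors lay slightly the other way. Foxo1 read 13.82 and 13.85 in the arrays labelled KO, against 13.91 and 14.10 in the arrays labelled WT. The groups did not overlap, but KO replicate 2 and WT replicate 1 were close. Its difference was -0.17 (SE 0.10, 0.889 times, 95% interval 0.743 to 1.06, limma adjusted p 0.658), and without WT replicate 1 it was -0.27 (SE 0.08, limma adjusted p 0.591). Without WT replicate 3 it was -0.07 (SE 0.08). Bach2 read 9.66 and 9.58 in the arrays labelled KO, against 9.77 and 9.74 in the arrays labelled WT, again without overlap. Its difference was -0.14 (SE 0.12, 0.911 times, 95% interval 0.731 to 1.13, limma adjusted p 0.798), and -0.12 (SE 0.12) without WT replicate 1. Id3 read 8.93 and 9.05 in the arrays labelled KO, and 8.99 and 9.28 in the arrays labelled WT, so its groups overlapped. Its difference was -0.14 (SE 0.16, 0.904 times, 95% interval 0.686 to 1.19, limma adjusted p 0.832), with -0.29 (SE 0.13) without WT replicate 1 and 0.00 (SE 0.13) without WT replicate 3. The upper ends of these 3 intervals lie at or below 1.19 times the WT level.

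In the effector set, the pair that opens effector genes is given first. Batf had the widest spread within the arrays labelled KO of any member, with 11.86 and 11.28, against 10.86 and 11.27 in the arrays labelled WT. KO replicate 2 and WT replicate 3 were separated by the last decimal, so the absence of overlap is marginal. Batf averaged 11.57 ± 0.41 in the arrays labelled KO and 11.06 ± 0.29 in the arrays labelled WT (SD, n = 2 each). Its difference of 0.51 (SE 0.25) was 1.42-fold with a 95% interval of 0.917 to 2.20 (limma adjusted p 0.580). That difference was 0.30 (SE 0.33) without WT replicate 1 and 0.21 without KO replicate 1.

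Irf4, the partner of Batf, differed through a single array. It read 8.43 and 8.41 in the arrays labelled KO, against 7.90 and 8.43 in the arrays labelled WT. WT replicate 3 matched the arrays labelled KO and WT replicate 1 was low. The difference was 0.26 (SE 0.20, 1.19-fold, 95% interval 0.832 to 1.71, limma adjusted p 0.765). Without WT replicate 1 it was -0.01 (SE 0.11).

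Maf, which drives interleukin-10 in effector cells, was close in the 2 arrays labelled KO. It read 13.72 and 13.75 in the arrays labelled KO, against 13.29 and 13.59 in the arrays labelled WT, without overlap. Its difference was 0.29 (SE 0.13, 1.23-fold, 95% interval 0.980 to 1.54, limma adjusted p 0.528), and 0.14 (SE 0.08) without WT replicate 1. Prdm1 read 6.55 and 6.53 in the arrays labelled KO, which lie between the 6.36 and 6.59 of the arrays labelled WT. Its difference was 0.07 (SE 0.13, 1.05-fold, 95% interval 0.834 to 1.31, limma adjusted p 0.921), and -0.05 (SE 0.10) without WT replicate 1. Id2 read 10.35 and 10.02 in the arrays labelled KO, a range that encloses the 10.26 and 10.18 of the arrays labelled WT. Its difference was -0.04 (SE 0.16, 0.976 times, 95% interval 0.737 to 1.29, limma adjusted p 0.966), and 0.01 (SE 0.21) without WT replicate 1.

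**Figure D2:**
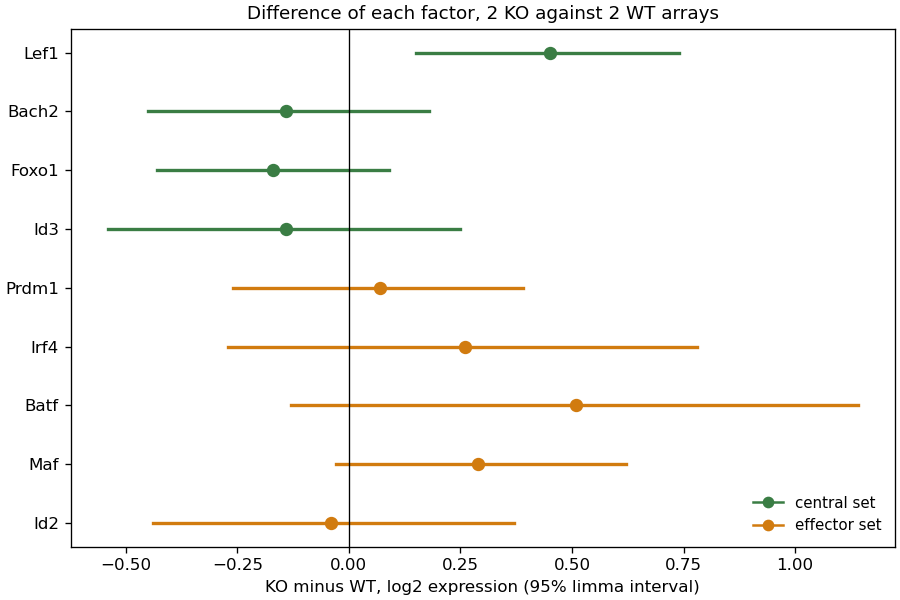
KO minus WT difference of each factor (x axis, log2 expression) with its 95% limma interval, central set in green and effector set in orange, from 2 arrays labelled KO and 2 labelled WT. The interval of Lef1, from 0.15 to 0.74, lies above 0, and those of the other 8 factors include 0.

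Set against each other, the central and effector factors leaned slightly apart in their medians. The median difference was -0.14 over the 4 central genes and 0.26 over the 5 effector genes, beside a median of 0.01 over all genes. In the arrays labelled KO, 1 gene of the central set was higher and 3 were lower, and in the effector set 4 were higher and 1 was lower. Of all genes 51.5% were higher, and 58.1% of the genes whose mean lay in the members' range. The central mean difference was 0.00, unlike the median, because Lef1 offset the other 3 genes. After each gene was centred on its own mean over the arrays, the central set averaged -0.01 and 0.01 in the arrays labelled KO, against -0.08 and 0.08 in the arrays labelled WT. The effector set averaged 0.20 and 0.02 in the arrays labelled KO, against -0.25 and 0.03 in the arrays labelled WT, so KO replicate 2 and WT replicate 3 were alike and the other arrays stood on either side. The central minus effector value was -0.21 and 0.00 in the arrays labelled KO, against 0.17 and 0.05 in the arrays labelled WT. The groups did not overlap in it, and the difference was -0.22 (KO SD 0.15, WT SD 0.08, n = 2 each). No p is given for these sums over chosen genes.

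**Figure D3:**
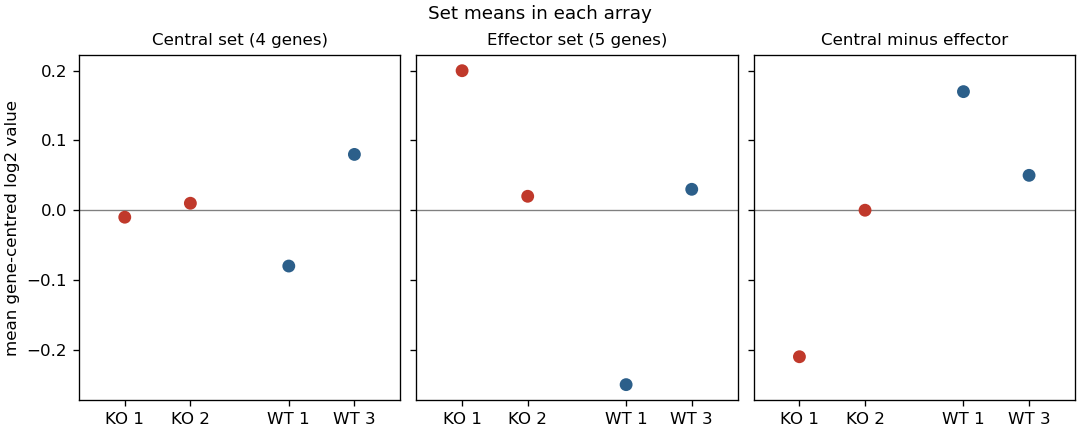
Mean gene-centred log2 value (y axis) of the central set, the effector set and their difference in each array (x axis), arrays labelled KO in red and arrays labelled WT in blue. The effector means of KO replicate 2 and WT replicate 3 are 0.02 and 0.03, between 0.20 in KO replicate 1 and -0.25 in WT replicate 1.

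Much of the lean in the effector median rested on WT replicate 1. That array held the lowest value for 4 of the 5 effector genes and for Lef1, 5 of the 9 members in all. It was the lowest array for 25.3% of all genes without ties and for 33.2% of the brighter genes. Without it the effector median difference was 0.01, the central median was -0.19 and the central minus effector difference was -0.16. The arrays then did not overlap for 7 of the 9 members, 3 higher and 4 lower, where 69.2% of all genes did not (37.8% higher and 31.4% lower). Without it an unadjusted limma p under 0.05 called Lef1 (0.0387) and Foxo1 (0.0487), where 8.19% of all genes were called, both with a limma adjusted p of 0.591. Without WT replicate 3 it called Lef1 (0.0130), Maf (0.0159) and Irf4 (0.0252), where 9.14% of all genes were called, each with a limma adjusted p of 0.546. The effector median difference was then 0.45 and the central median -0.04. Without KO replicate 1 the effector median difference was 0.21. The central minus effector difference was then -0.11, a smaller size than without WT replicate 1. The spread within groups was uneven too. The median distance between the replicates was 0.03 in the arrays labelled KO and 0.23 in the arrays labelled WT over the members, beside 0.12 and 0.13 over all genes.

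The family members and partners of these factors had smaller differences. Their median size was 0.10, beside 0.17 for the factors and 0.10 over all genes. In 9 lists (E proteins and Id factors, Batf partners, IRF factors, MAF and BACH factors, TCF and LEF factors with co-repressors, FOXO factors with AKT control, Blimp-1 partners, other quiescence factors and other effector regulators), 86 genes were measured and 0 passed the limma adjusted threshold. At an unadjusted limma p under 0.05, 2 genes were called higher and 1 was called lower (3.49%, against 10.1% of all genes). The list medians ran from -0.08 to 0.17, the highest being that of the E protein and Id family, where 6 of 7 genes were higher.

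The 3 genes with such a p each belong to a partner or paralogue of a member. Kdm1a, a histone demethylase that works with Blimp-1, read 9.76 and 9.90 in the arrays labelled KO, against 9.45 and 9.45 in the arrays labelled WT, a difference of 0.38 (SE 0.13, limma adjusted p 0.436). Tcf7l2, a paralogue of Lef1, read 5.22 and 5.37 in the arrays labelled KO, against 4.98 and 5.07 in the arrays labelled WT, a difference of 0.27 (SE 0.10, limma adjusted p 0.483). Bach1, the paralogue of Bach2, read 7.91 and 7.60 in the arrays labelled KO, against 8.23 and 8.15 in the arrays labelled WT, a difference of -0.43 (SE 0.16, limma adjusted p 0.454). Neither group overlapped the other for any of them.

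Further genes whose arrays did not overlap, up to 4 of smallest p in a list, are given as differences that did not pass. Of the 86 genes measured, 18 were higher and 15 lower without overlap. Over all genes 20.9% were higher and 17.5% lower without overlap, so the lists held about the share found in any genes. Among E proteins, which Id2 and Id3 bind, Tcf4 had 0.25 (SE 0.13) and Tcf12 0.17 (SE 0.13), and the Id family member Id4 had 0.18 (SE 0.10). Among Batf partners, Jun had 0.28 (SE 0.14), Fosl2 -0.30 (SE 0.13), Batf3 0.10 (SE 0.09) and Jund 0.07 (SE 0.10). The small MAF protein gene Mafk had -0.26 (SE 0.16) and Nfe2 -0.04 (SE 0.07). Irf1 had 0.30 (SE 0.15) and Irf3 0.34 (SE 0.18). Foxo3 and the kinase Akt2, which inactivates FOXO factors, both had -0.17 (SE 0.12 each). Bcl6, the repressor that opposes Blimp-1, had -0.21 (SE 0.12), Prdm2, a relative of Prdm1, -0.24 (SE 0.13), and the histone methyltransferase gene Ehmt2 0.14 (SE 0.13). Axin2, a standard beta-catenin target, had -0.11 (SE 0.12), the beta-catenin cofactor Bcl9l -0.30 (SE 0.15) and Tcf7l1 -0.14 (SE 0.09). Rbpj, which mediates Notch signals, had -0.28 (SE 0.17), Klf6 0.17 (SE 0.08), Satb1 0.17 (SE 0.11) and Runx3 0.14 (SE 0.12). The transcription factor genes Nfil3 at 0.33 (SE 0.14) and Zeb1 at -0.29 (SE 0.13) and the antiproliferative gene Tob1 at 0.34 (SE 0.16) complete this group, with limma adjusted p between 0.526 and 0.555 for the 3. With single arrays left out, Irf3 ran from 0.16 to 0.51 and Tob1 from 0.16 to 0.52.

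The surface and effector genes by which central and effector cells are told apart lay in both directions within each list. Across 3 such lists 64 genes were measured, 0 passed the limma adjusted threshold, and the median size of difference was 0.18, beside 0.17 for the factors. At an unadjusted limma p under 0.05, 4 genes were called higher and 6 were called lower (15.6%, against 10.1% of all genes). The list medians lay between -0.02 and 0.04.

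Among central genes, a pair of genes known to depend on Foxo1 lay on opposite sides. Ccr7, the receptor that guides T cells into lymph nodes, read 11.68 and 11.74 in the arrays labelled KO, against 11.12 and 11.06 in the arrays labelled WT, a difference of 0.62 (SE 0.11, 1.54-fold, limma adjusted p 0.295). Il7r, the interleukin-7 receptor that supports resting T cells, read 11.16 and 11.42 in the arrays labelled KO, against 12.12 and 12.32 in the arrays labelled WT, a difference of -0.93 (SE 0.15, 0.525 times, limma adjusted p 0.271). Both had groups far apart relative to their replicates. Foxo1 itself differed by -0.17, and its part in the differences of Ccr7 and Il7r was not tested. Gpr83, a receptor of regulatory T cells, had 1.15 (SE 0.28, limma adjusted p 0.354), or 0.74 to 1.55 with single arrays left out. Ly6c1 had 1.34 (SE 0.70, limma adjusted p 0.606), which was 0.26 to 2.42 when single arrays were left out, with WT replicate 1 at 9.23 and the other 3 arrays at 11.40 to 11.88. In the whole central list 7 of 13 genes were higher and 6 lower.

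Among effector genes, 17 of 30 were higher and 13 lower. Cd44, a marker of antigen-experienced T cells, read 8.96 and 8.86 in the arrays labelled KO, against 8.41 and 8.40 in the arrays labelled WT, a difference of 0.51 (SE 0.13, limma adjusted p 0.358). Klrg1, a marker of terminally differentiated effector cells, read 8.23 and 8.38 in the arrays labelled KO, against 8.80 and 8.99 in the arrays labelled WT, a difference of -0.59 (SE 0.14, limma adjusted p 0.353). Cd44 and Klrg1 thus lay on opposite sides in the same list. The skin and tissue homing receptor Ccr4 had -0.76 (SE 0.18, limma adjusted p 0.351) and the ectonucleotidase gene Entpd1 had -0.69 (SE 0.26, limma adjusted p 0.473), or -1.05 to -0.33 with single arrays left out.

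The genes that T cell receptor signals induce, among which Irf4 and Batf are also counted in T cells, showed no common direction, with 9 of 22 higher and 13 lower. The early activation marker Cd69 had 0.46 (SE 0.11, limma adjusted p 0.360) and Nr4a2 0.47 (SE 0.22, limma adjusted p 0.555). The cytokine genes Tnf and Xcl1 had -0.68 (SE 0.19, limma adjusted p 0.390) and -0.41 (SE 0.13, limma adjusted p 0.425).

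**Figure D4:**
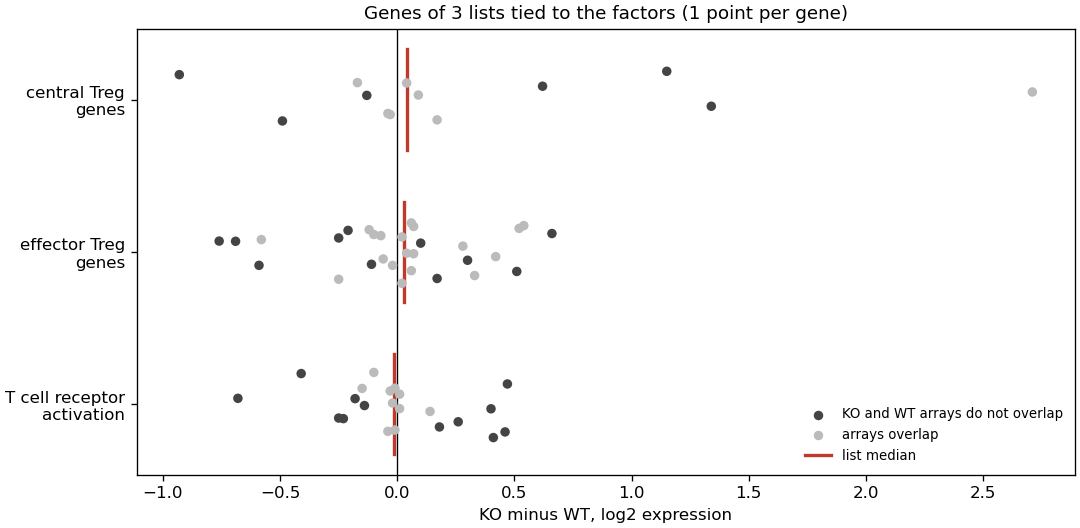
KO minus WT difference (x axis, log2 expression) of each measured gene in the central, effector and T cell receptor activation lists, 1 point per gene, dark where KO and WT arrays do not overlap and with the list median in red. All 3 medians lie between -0.02 and 0.04 while single genes spread to both sides, and the grey point at 2.71 is Ly6c2.

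Among the genes of these lists, those whose profile over the 4 arrays lay nearest to each set's mean profile were found by the root mean square distance of gene-centred values, over 149 candidates. For the central set they were Bcl11b, Foxp1 and Il6ra (0.03 each), and their differences were 0.04, -0.01 and -0.03. The central mean ran only from -0.08 to 0.08 over the arrays, so genes that varied little lay nearest to it. For the effector set the nearest genes were Jun and Tcf3 (0.04 each) and Cxcr3 (0.05), with differences of 0.28, 0.17 and 0.30. Jun read 11.69 and 11.52 in the arrays labelled KO, against 11.20 and 11.44 in the arrays labelled WT, again lowest in WT replicate 1. Distances over so few arrays describe these arrays only.

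The protein-coding genes next to the members on GRCm38.p6 were compared in the same way, and 17 of 18 were measured. Of these 0 passed the limma adjusted threshold, 3 had an unadjusted limma p under 0.05 (10.1% of all genes did), and 6 had arrays that did not overlap (38.4% of all genes). In the arrays labelled KO, 6 were higher and 11 lower. Beside Lef1, the neighbour Hadh had 0.29 (SE 0.20). Beside Bach2, Map3k7 had -0.17 (SE 0.21) and Gja10 0.23 (SE 0.08, limma adjusted p 0.441). Beside Foxo1, Maml3 had -0.04 (SE 0.12) and Cog6 -0.23 (SE 0.18). Beside Batf, Jdp2 had 0.06 (SE 0.11) and Flvcr2 -0.13 (SE 0.09), and beside Maf, Wwox had 0.20 (SE 0.19) and Dynlrb2 -0.01 (SE 0.18). The neighbours of the 4 members whose arrays overlap were added after their values were seen, and they include the other 2 with such a p. Beside Id2, Rnf144a had -0.69 (SE 0.16, limma adjusted p 0.335) and Kidins220 -0.41 (SE 0.22). Beside Prdm1, Prep had -0.41 (SE 0.13, limma adjusted p 0.418) and Atg5 -0.15 (SE 0.14). Beside Irf4, Exoc2 had -0.14 (SE 0.12) and Dusp22 -0.04 (SE 0.12), and beside Id3, E2f2 had 0.21 (SE 0.19) and Rpl11 0.06 (SE 0.12).

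Several members are also active in other spleen cells, so markers of those cells are given. Plasma cells use Prdm1 and Irf4, and 8 of 12 plasma cell markers were higher in the arrays labelled KO. The list averaged 7.49 and 7.45 in the arrays labelled KO, against 7.11 and 7.21 in the arrays labelled WT. Jchain, which joins antibody units, had 1.03 (SE 0.13, limma adjusted p 0.205), Ighg2b 1.81 (SE 0.12, limma adjusted p 0.106) and Mzb1 0.40 (SE 0.10, limma adjusted p 0.354). Prdm1 in both arrays labelled KO lay within the range of the arrays labelled WT, and Irf4 in WT replicate 3 equalled KO replicate 1. The plasma cell markers Sdc1 and Tnfrsf17 read 4.31 to 4.60 in the arrays labelled KO and 4.21 to 4.52 in the arrays labelled WT, below the array medians. Derl3 was higher without overlap, by 0.27 (SE 0.11, limma adjusted p 0.531). Of the 12 markers, 6 lay below the median gene. Without overlap 5 of the 12 were higher and 1 was lower, beside 20.9% and 17.5% of all genes. Whether plasma cells were present was not tested, nor was their part in the values of Prdm1 and Irf4.

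Cytotoxic lymphocytes also use Id2 and Prdm1, and 6 of 9 NK and innate lymphoid markers were higher in the arrays labelled KO. Of all genes 51.5% were higher. Nkg7, a granule protein, had 1.16 (SE 0.32, limma adjusted p 0.378) and Eomes 1.07 (SE 0.37, limma adjusted p 0.439). With single arrays left out, Nkg7 ran from 0.80 to 1.52 and Eomes from 0.52 to 1.64. Ncr1, which defines NK cells, read 4.12 and 4.23 in the arrays labelled KO, against 4.07 and 4.02 in the arrays labelled WT. The lower markers were Klrb1c at -0.12 (SE 0.16), Klrk1 at -0.05 (SE 0.09) and Klre1 at -0.07 (SE 0.08). The list averaged 5.55 and 5.79 in the arrays labelled KO, against 5.35 and 5.47 in the arrays labelled WT, with 6 of 9 markers below the median gene. Of the 2 CD8 T cell markers, Cd8b1 read 10.71 and 11.26 in the arrays labelled KO, against 9.74 and 10.78 in the arrays labelled WT. Its groups overlapped, with a difference of 0.72 (SE 0.38, limma adjusted p 0.613). Cd8a was dim, at 4.08 and 4.07 in the arrays labelled KO and 4.12 and 4.23 in the arrays labelled WT. Macrophages use Maf, and the myeloid list averaged 4.50 and 4.48 in the arrays labelled KO, against 4.54 and 4.45 in the arrays labelled WT, with 12 of 15 markers below the median gene. Dendritic cells use Irf4 and Id2, and 8 of 10 of their markers were lower in the arrays labelled KO. Of the 10 markers, 7 lay below the median gene. Bst2, bright in all arrays (14.34 to 14.96), had -0.48 (SE 0.10, limma adjusted p 0.298). Ccr9 had 0.29 (SE 0.16, limma adjusted p 0.613). The list means were 5.54 and 5.52 in the arrays labelled KO, against 5.64 and 5.53 in the arrays labelled WT. T cell markers were higher in 7 of 8 cases, Cd3e by 0.56 (SE 0.06, limma adjusted p 0.141). The part of these markers in the differences of Batf, Maf and Lef1 was not tested.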

How the data were processed

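Expression was measured on 1-colour arrays, 2 per group, grouped by sample title. The authors deposited 1 table of log2 values for 65528 transcript clusters. RMA, which summarises probes into 1 value, and Transcriptome Analysis Console are named in the submitters' processing notes. RMA output is on base 2, and the values (1.82 to 19.38) fit that. For versions, background handling and genome build nothing was given in the sources. All columns were used.

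Names came from the platform annotation, in which 31042 clusters had 1 symbol after older symbols were updated from RefSeq (GRCm38.p6), 1475 several and 33011 were not listed. Of several clusters of a gene, the one with the highest mean was kept (30497 genes, no filter on dim genes). KO minus WT was fitted on the log2 scale with limma 3.58.1 in R 4.3.3 (lmFit, eBayes with intensity trend, two-sided, Benjamini-Hochberg over all genes, threshold 0.05, prior degrees of freedom 3.16, median standard error 0.12). Intervals come from it too. An exact permutation test of 2 against 2 arrays cannot give a two-sided p below 0.333. The fit was tested on simulated data.

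The members and lists were chosen with earlier results of these data known. All members are named. From each list, up to 4 genes (3 for cell markers) of smallest p without overlap were eligible, along with the nearest profiles and neighbours. Il2ra, Ly6c2, Sdc1, Tnfrsf17, Derl3, Ighm, Klrb1c, Klrk1, Klre1, Cd8b1 and the neighbours of 4 members were named after their values were seen. The number of arrays limits the precision. Alternatives were median-centring, quantile normalization, brighter genes, protein-coding genes, mean of clusters, other eBayes settings and leaving out each array.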

Additional observations from a re-analysis of the deposited data

How the results depend on the processing

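Across 11 alternatives none of the 9 factors passed a limma adjusted p under 0.05 (0.228 at the lowest, for Lef1 among the 15253 brighter genes), and 95 of 99 alternative differences kept their sign or were 0.00. Those that turned were Prdm1 (-0.05), Irf4 (-0.01) and Id2 (0.01) without WT replicate 1, and Id2 without KO replicate 2 (0.13). With single arrays left out, Prdm1 ran from -0.05 to 0.18, Irf4 from -0.01 to 0.52 and Id2 from -0.20 to 0.13. Over all alternatives Foxo1 lay between -0.27 and -0.07, Id3 between -0.29 and 0.00, Bach2 between -0.17 and -0.10, and Lef1 stayed between 0.34 and 0.55, Batf between 0.21 and 0.80 and Maf between 0.14 and 0.45. Without 1 array at a time, the effector median difference ran from 0.01 (without WT replicate 1) to 0.45 (without WT replicate 3). The central median ran from -0.19 to -0.04. The central minus effector difference ran from -0.32 (without KO replicate 2) to -0.11 (without KO replicate 1). The count of all genes past the threshold, 2 as reported, was 1 after median-centring or among protein-coding genes, 13 among brighter genes (9 higher and 4 lower), and 0 after a further quantile normalization, without an intensity trend, with robust settings, and without any 1 array, where 1677 to 3107 genes still had an unadjusted limma p under 0.05. The cause of these shifts was not tested. The overlap of arrays without WT replicate 1 was added after seeing the data. No paired analysis was possible because the groups share only replicate number 1. The array table holds no background measure, so a difference in a dim gene such as Id4 can be understated.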
